A study of Mus musculus with 9 samples.

Results

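The 10 genes described here encode the core of the cytosolic heat shock system of the mouse: the transcription factor gene Hsf1, the HSP70 genes Hspa8, Hspa1a and Hspa1b, their partner genes Hsph1 and Dnajb1, the HSP90 genes Hsp90aa1 and Hsp90ab1, and the HSP90 cochaperone genes Stip1 and Chordc1. They were chosen by symbol, matched to the Ensembl identifiers of the count table through the GENCODE M21 annotation, and all 10 were found among 43629 genes. Their transcripts were measured in Eµ-Myc lymphoma cells of clone 4242, a mouse B-cell lymphoma in which a Myc transgene is under the control of the enhancer of the antibody heavy chain locus. All 9 libraries come from this 1 clone, grown in vitro and collected after 2 h. The cells of 3 libraries had received JQ1 at 1 µM, those of 3 others RG6146 at 2.5 µM, and those of the last 3 DMSO, the solvent. JQ1 and RG6146 inhibit BET bromodomain proteins, readers of acetylated histones that help RNA polymerase II to elongate. The labels call the replicates biological triplicates and name no batch or date, so p-values reflect only how far cultures of 1 clone vary.

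HSP70 proteins bind unfolded stretches of other proteins and release them in a cycle driven by ATP, with J-domain proteins such as DNAJB1 bringing the client and HSP110 proteins such as HSPH1 exchanging the nucleotide. STIP1, also known as HOP, passes clients from HSP70 to HSP90, which completes the folding of kinases, steroid receptors and other signalling proteins. The system is under the control of HSF1, which is held inactive by chaperones and, when unfolded proteins accumulate, binds heat shock elements, inverted repeats of the letters GAA, in the promoters of chaperone genes. Lymphoma cells with high MYC make protein at a high rate and carry large amounts of the constitutive chaperones HSC70 and HSP90β.

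Promoter sequences of RefSeq on the build GRCm38.p6, 250 bases before and 50 after a transcript start, were at hand for 6 of the 10 genes, in 8 windows. They are shown for the letters that HSF1 is known to read and for the near-identity of the inducible HSP70 pair. In capitals are matches to the heat shock element in its form of 3 repeats, GAANNTTCNNGAA or TTCNNGAANNTTC, or of 2 repeats, GAANNTTC or TTCNNGAA, where N is any base and each form was searched on both strands. The form of 3 repeats contains that of 2, and overlapping matches are joined. Chordc1 and Hsph1 held the form of 3 repeats, in lines 1 and 2, on chr9:18292260-18292288 (plus strand) and chr5:149636285-149636303 (minus strand). Each had also a separate match of 2 repeats, in lines 3 and 4, on chr9:18292297-18292310 and chr5:149636359-149636372. The start follows base 250 of a window. The joined match of Chordc1 took bases 247 to 269, across the start, and its separate match lay after it. That of 3 repeats in Hsph1 took bases 287 to 299 or 266 to 278 of its 2 windows, after the start, and its separate match lay before it. Hspa1a and Hspa1b held 1 match of 2 repeats each, in the 150 bases before their starts, on chr17:34972157-34972306 and chr17:34959239-34959388 (both minus strand).
Chordc1: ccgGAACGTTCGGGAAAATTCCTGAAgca
Hsph1: agaTTCTGGAAAGTTCtcc
Chordc1: ggcTTCCGGAAgct
Hsph1: tctTTCTCGAAggc
Hspa1a: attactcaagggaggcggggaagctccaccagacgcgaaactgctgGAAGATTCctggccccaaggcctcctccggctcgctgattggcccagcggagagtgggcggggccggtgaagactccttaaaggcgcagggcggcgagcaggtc
Hspa1b: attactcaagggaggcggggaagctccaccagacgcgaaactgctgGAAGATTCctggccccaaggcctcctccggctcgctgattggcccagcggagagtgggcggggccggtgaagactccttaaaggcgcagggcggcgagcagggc

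The windows of Hspa1a and Hspa1b were the same at 296 of 300 bases (98.7%). Of all 32851 mouse windows, 0.603% held the form of 3 repeats and 15.1% that of 2. The windows of Dnajb1 and Stip1 held neither form. They are shown because both genes rose with either compound. In capitals are CCAAT, or ATTGG on the other strand, present in 37.4% of all windows, and TATAAA, present in 13.6%. The stretches lie on chr8:83607925-83608174 (plus strand) and chr19:7040027-7040276 (minus strand), and the Stip1 stretch holds 4 matches of CCAAT and 1 of TATAAA. A match of letters is a description of the window and no evidence of binding, and a window without a match says nothing of sites elsewhere.
Dnajb1: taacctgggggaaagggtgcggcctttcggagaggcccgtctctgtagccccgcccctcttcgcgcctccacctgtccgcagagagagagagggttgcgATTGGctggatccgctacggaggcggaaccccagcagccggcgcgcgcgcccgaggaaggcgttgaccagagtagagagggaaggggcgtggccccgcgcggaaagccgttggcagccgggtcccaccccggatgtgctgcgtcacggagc
Stip1: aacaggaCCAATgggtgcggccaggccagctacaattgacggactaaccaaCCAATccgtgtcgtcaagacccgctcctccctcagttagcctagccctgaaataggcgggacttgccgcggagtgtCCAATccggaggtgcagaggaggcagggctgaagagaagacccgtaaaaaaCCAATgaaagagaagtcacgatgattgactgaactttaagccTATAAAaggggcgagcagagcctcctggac

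Depth was 3410161 to 5031717 gene counts per library. Levels are given as CPM, counts scaled to the size of the library after TMM, an edgeR method that sets libraries level on the bulk of their genes. The libraries hold tags from the 3′ ends of transcripts, about 1 per molecule, so levels of different genes were set side by side without division by length. Hexim1, a known marker of BET inhibition, lay at 129 to 140 CPM under DMSO and at 363 to 400 CPM in the 6 treated libraries. Of 12 B-cell markers, all but Igll1 had counts in all 9 libraries, though Vpreb1 had as few as 1. Over all tested genes, 15.4% were called lower with JQ1 and 13.5% with RG6146. Of 11 B-cell markers tested, 7 fell with either compound. Cd22 was among them, from 38.4 to 52.7 CPM under DMSO to 10.3 to 17.2 in treated libraries. Cd79a, at 34.8 to 41.9 CPM, was not called. Among 11 markers of T and NK cells, Ncr1 was at 0 in all libraries and only Cd2 had enough counts to test, at 5.51 to 9.95 CPM under DMSO and 2.35 to 5.31 in treated libraries, and it fell with JQ1. Among 11 stromal and endothelial markers, Dcn was at 0, Vim lay at 92.6 to 104.9 CPM and was not called, and Pecam1 fell with either compound, from 24.9 to 32.7 CPM to 4.97 to 10.9. No erythroid marker had enough counts to test. The sum of 12 myeloid markers was 142 to 682 CPM in DMSO libraries, 59.9 to 259 in JQ1 libraries and 83.9 to 116 in RG6146 libraries, with replicate 2 the highest under DMSO and under JQ1. Of 7 myeloid markers tested, 1 was called with each compound, where 28.9% and 26% of all tested genes were. It was Csf1r, which rose by 0.59 with JQ1 and 0.48 with RG6146. S100a8, S100a9 and Mpo, which made up most of the sum under DMSO, were not called. Their log2 fold changes were -2.24, -2.03 and -1.25 with JQ1 and -2.64, -2.39 and -1.88 with RG6146. Lyz2, Elane and Fcgr3 also had negative values with both compounds and were not called. The part of Cd2, Pecam1 and Csf1r in the results on the heat shock genes was not tested. Replicate 1 of JQ1 held 7670 CPM of mitochondrially encoded transcripts, against 10879 to 15017 in the other 8 libraries. In such bulk libraries, fewer cells with a transcript and less of it per cell cannot be told apart.

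Under DMSO the 2 HSP90 genes and Hspa8 stood far above the other members. Hsp90ab1, which encodes the constitutive HSP90β, had 4525 ± 331 CPM (SD, n = 3), Hsp90aa1, which encodes the inducible HSP90α, had 2514 ± 81.1, and Hspa8, which encodes the constitutive HSC70, had 1109 ± 72.2. Stip1 (125 ± 3.01), Chordc1 (113 ± 13.0) and Hsph1 (97.1 ± 4.03) formed a middle tier in which the libraries of Stip1 and Chordc1 overlapped and those of Chordc1 and Hsph1 met at 101 CPM. Dnajb1 followed at 32.5 ± 1.53, then Hsf1 at 7.84 ± 0.984, Hspa1b at 4.24 ± 1.95 and Hspa1a at 0.931 ± 0.503, with no overlap between neighbours from Hsph1 down. The 10 genes together took 0.885% to 0.907% of the counts in the DMSO libraries, while JQ1 libraries gave 0.920% to 1.02% and RG6146 libraries 0.973% to 0.987%. The treated libraries all lay above the DMSO libraries in this share. The HSP90 pair made up most of it, with 0.727% to 0.756% of the counts in DMSO libraries. The pair took 0.739% to 0.833% with JQ1 and 0.789% to 0.816% with RG6146. For the pair alone, JQ1 replicate 2 lay within the DMSO range.

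**Figure D1:**
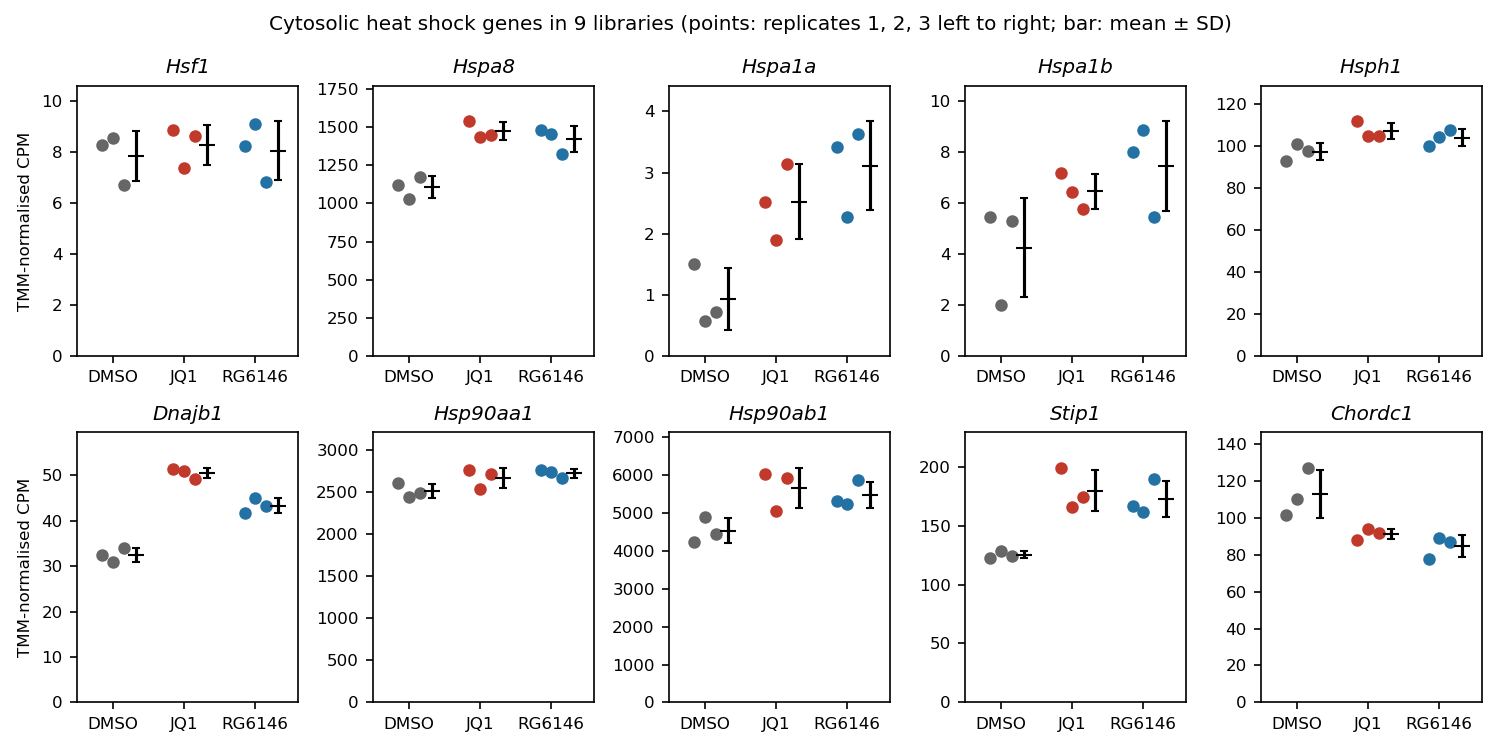
TMM-normalised CPM of the 10 cytosolic heat shock genes in each of the 9 libraries (points, replicates 1 to 3 from left to right in each group; bars, mean ± SD, n = 3; each vertical axis starts at 0). Dnajb1, Stip1 and Hspa8 were higher in all 6 treated libraries than in any DMSO library, Chordc1 was lower in all 6, and Hsf1 overlapped.

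JQ1 was set against DMSO to ask what 2 h of BET inhibition does to these transcripts. Of the 10 genes, 5 rose, 1 fell and 4 were not called (edgeR quasi-likelihood test, adjusted p below 0.05 over 11002 tested genes). Over all tested genes, 28.9% were called, 13.6% higher and 15.4% lower. Hspa1a, Dnajb1, Stip1, Hspa8 and Hsp90ab1 rose, between 1.25-fold and 2.50-fold, and Chordc1 fell. The comparison of RG6146 with DMSO gave the same 5 rises, between 1.21-fold and 3.11-fold, and the same fall, where 26% of all tested genes were called, 12.5% higher and 13.5% lower. The median log2 fold change of the 10 genes was 0.37 with JQ1 and 0.32 with RG6146, beside 0.0047 and 0.0086 over all tested genes. Both comparisons use the same 3 DMSO libraries, so the second is no independent repeat of the first.

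Hsf1, which encodes the heat shock transcription factor (Ensembl gene ENSMUSG00000022556, chromosome 15, 76477422 to 76501913, plus strand, GRCm38), had 8.28, 8.53 and 6.71 CPM in the 3 DMSO libraries, 8.84, 7.38 and 8.63 with JQ1 and 8.21, 9.11 and 6.82 with RG6146. The 3 groups overlapped throughout. Its log2 fold change was 0.08 ± 0.21 (SE) with JQ1 (edgeR adjusted p = 0.816) and 0.03 ± 0.21 with RG6146 (0.936), and with scaling by library size both values turned to -0.05 and -0.07. With 310 counts in all, the 95% interval for JQ1 ran from -0.33 to 0.49, so a rise or a fall within these bounds remains possible. Transcript level is no measure of HSF1 activity, which is set on the protein.

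Hspa8, the constitutive HSP70 (ENSMUSG00000015656, chromosome 9, 40800984 to 40810087, plus strand), had 1123, 1031 and 1173 CPM under DMSO. With JQ1 it had 1539.8, 1433 and 1448, and with RG6146 1483, 1458 and 1324. Every treated library lay above every DMSO library. The log2 fold change was 0.41 ± 0.07 with JQ1 (edgeR adjusted p = 1.6e-04) and 0.36 ± 0.07 with RG6146 (6.0e-04), or 1.33-fold and 1.28-fold.

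A limit of the Hspa8 value lies in near-identical copies of the gene elsewhere in the genome. For 6 transcripts, 5 of them processed pseudogenes, at least 75 bases at 95% identity or more matched the last 500 bases of Hspa8, on either strand. They held 5983 counts, 11.6% as many as Hspa8, and how reads that match several places were counted is not given in the sources used here. The lincRNA Gm26825 and the pseudogene Gm15459, which overlap each other on opposite strands of chromosome 5, held most of them. Gm26825 had 209.5, 25.6 and 62.3 CPM in the DMSO libraries, so the copies varied far more between replicates than Hspa8 did. They made up 24.4% of the sum of Hspa8 and its copies in DMSO replicate 1 and 4.48% to 17.0% in the other 8 libraries. The sum was 1485, 1091 and 1333 CPM under DMSO, 1612, 1506 and 1744 with JQ1, and 1565, 1613 and 1421 with RG6146. JQ1 stayed above DMSO in all libraries, while 1 RG6146 library fell below DMSO replicate 1. With the copies added to the gene, an alternative chosen after seeing the data, the log2 fold change was 0.31 with JQ1 (edgeR adjusted p = 0.0395) and 0.23 with RG6146 (0.121), which ended that call.

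**Figure D2:**
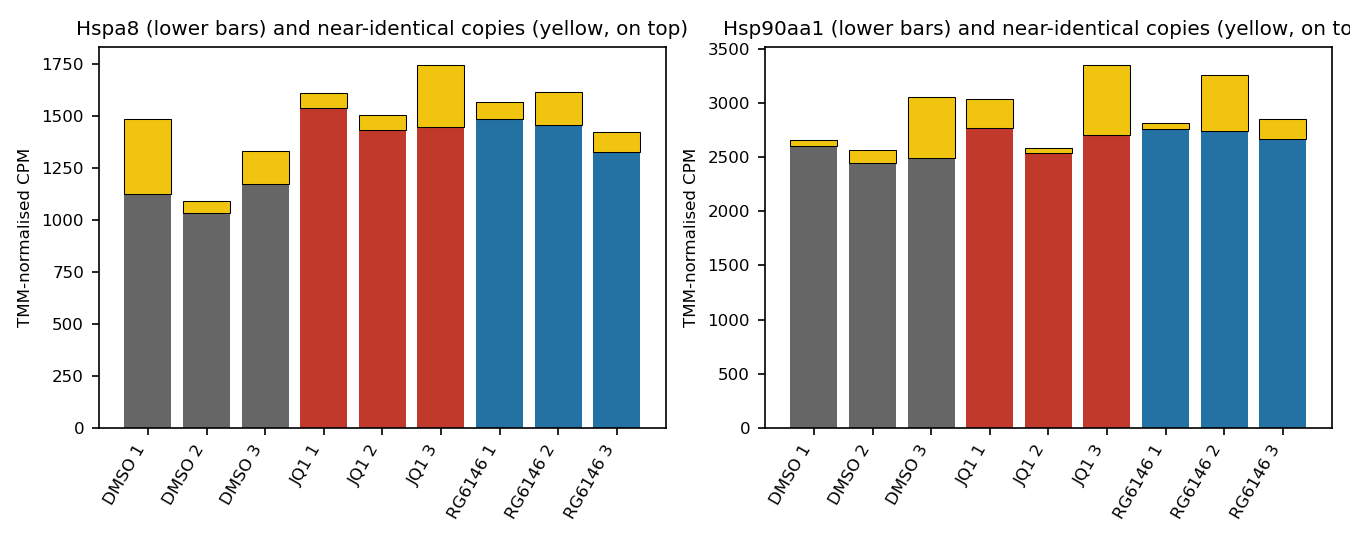
TMM-normalised CPM of Hspa8 (left) and Hsp90aa1 (right) in each library, with the summed level of their near-identical copies stacked on top in yellow; the vertical axes start at 0. The copies of Hspa8 reach 362 CPM in DMSO replicate 1, and those of Hsp90aa1 range from 50.9 to 641 CPM without following the groups.

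The inducible HSP70 genes Hspa1a and Hspa1b stand in the major histocompatibility region of chromosome 17 (Hspa1a, ENSMUSG00000091971, 34969190 to 34972156, and Hspa1b, ENSMUSG00000090877, 34956436 to 34959238, both minus strand), 9952 bases apart. Both were near the detection limit, with 85 and 235 counts over all 9 libraries. Hspa1a had 8, 2 and 3 counts under DMSO, 12, 8 and 12 with JQ1, and 15, 9 and 16 with RG6146, that is 1.505, 0.569 and 0.719 CPM, then 2.53, 1.90 and 3.14, then 3.42, 2.28 and 3.63. All treated libraries lay above the DMSO libraries. It had the largest fold changes of the 10 genes and the widest intervals. Its log2 fold change was 1.32 ± 0.51 with JQ1 (95% interval 0.36 to 2.34, edgeR adjusted p = 0.0473) and 1.64 ± 0.50 with RG6146 (0.69 to 2.64, 0.0143).

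The call of Hspa1a rests on few reads. Its JQ1 call ended in 12 of 20 alternatives, with log2 fold changes of 1.11 to 1.90 and adjusted p of 0.0310 to 0.170 over all 20. Its RG6146 call ended in 6 of 20, with 1.42 to 2.22 and 0.0121 to 0.0776. Single libraries decided it: without DMSO replicate 2, DMSO replicate 3, JQ1 replicate 1, JQ1 replicate 3 or any 1 RG6146 library the JQ1 call ended, and without DMSO replicate 2, DMSO replicate 3, RG6146 replicate 1 or RG6146 replicate 3 the RG6146 call ended. Gm20481, annotated on the opposite strand over 2225 bases of Hspa1a, held 34 counts, and the strand setting of the counting is not given in the sources used here, so reads of the pair may be mixed.

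Hspa1b had 5.45, 1.99 and 5.27 CPM under DMSO, 7.16, 6.43 and 5.75 with JQ1, and 7.98, 8.86 and 5.45 with RG6146. The JQ1 libraries lay above the DMSO libraries, and 1 RG6146 library did not. The log2 fold change was 0.56 ± 0.32 with JQ1 (edgeR adjusted p = 0.196) and 0.76 ± 0.31 with RG6146 (0.0816), neither past the threshold. Without RG6146 replicate 3 the RG6146 value was 0.94 (0.0489). The inducible pair made up 0.248% to 0.616% of the counts of the 3 HSP70 genes in DMSO libraries. In JQ1 libraries the share was 0.578% to 0.625% and in RG6146 libraries 0.681% to 0.763%, so Hspa8 held nearly all HSP70 counts throughout.

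The partner genes of HSP70 differed from each other. Dnajb1, the J-domain protein HSP40 (ENSMUSG00000005483, chromosome 8, 83608193 to 83612653, plus strand), had 32.3, 31.0 and 34.0 CPM under DMSO, 51.3, 50.9 and 49.2 with JQ1, and 41.7, 45.04 and 43.2 with RG6146. The 3 groups were fully apart, with RG6146 in between. Its log2 fold change was 0.64 ± 0.10 with JQ1 (1.55-fold, edgeR adjusted p = 9.3e-05) and 0.41 ± 0.10 with RG6146 (1.33-fold, 0.00431). It had the smallest p-value of the 10 genes with JQ1.

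Hsph1, the HSP110 exchange factor (ENSMUSG00000029657, chromosome 5, 149614287 to 149636376, minus strand), had 92.9, 101 and 97.6 CPM under DMSO, 112, 105 and 105 with JQ1, and 99.9, 104 and 108 with RG6146. The JQ1 libraries lay above the DMSO libraries by a few CPM, and 1 RG6146 library lay within the DMSO range. The log2 fold change was 0.14 ± 0.08 with JQ1 (edgeR adjusted p = 0.198) and 0.10 ± 0.08 with RG6146 (0.397), with 95% intervals of -0.01 to 0.30 and -0.06 to 0.25. Rises above these upper bounds, the size of that of Dnajb1 included, lay outside the intervals.

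**Figure D3:**
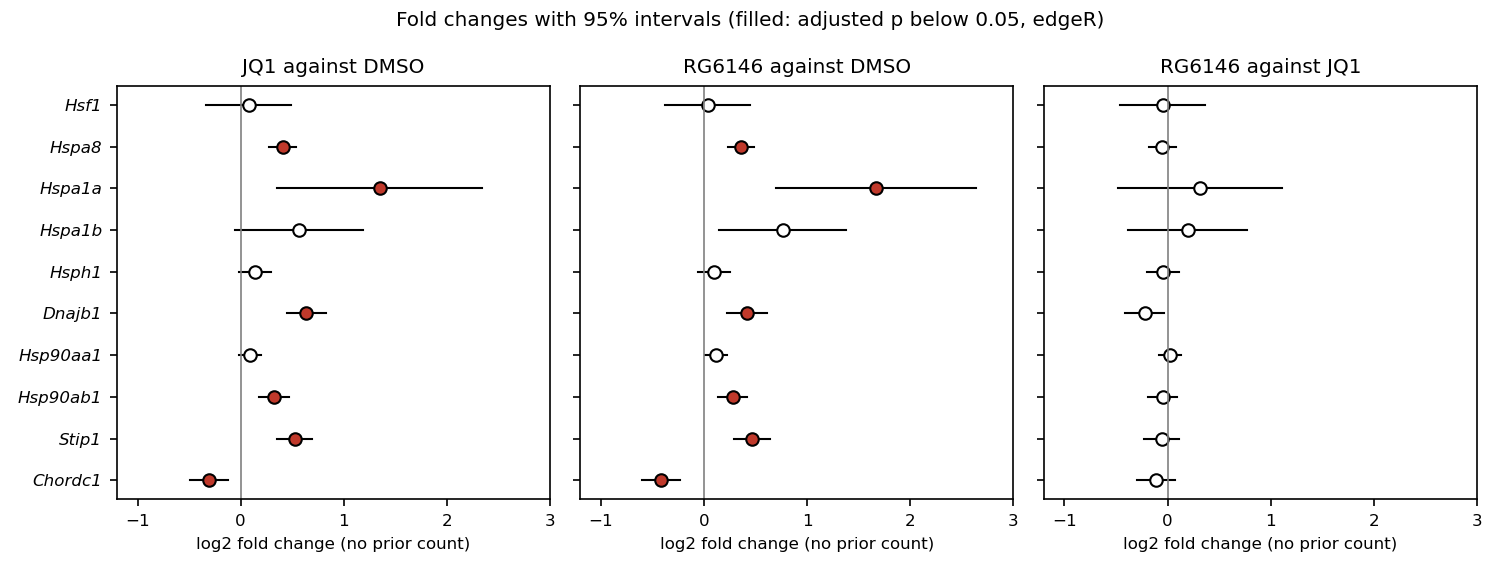
Log2 fold changes, without prior count, of the 10 genes in the 3 comparisons (points) with 95% Wald intervals (lines; filled points, adjusted p below 0.05 by edgeR's quasi-likelihood test). The left and middle panels show the same 5 genes above 0 and Chordc1 below 0, with the widest intervals for Hspa1a, and the right panel shows no filled point.

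The 2 HSP90 genes also moved unequally. Hsp90ab1 (ENSMUSG00000023944, chromosome 17, 45567775 to 45573271, minus strand) had 4241, 4888 and 4445 CPM under DMSO, 6014, 5056 and 5921 with JQ1, and 5318, 5243 and 5877 with RG6146. No treated library reached down to the highest DMSO library, replicate 2. The log2 fold change was 0.32 ± 0.07 with JQ1 (1.25-fold, edgeR adjusted p = 0.00364) and 0.28 ± 0.07 with RG6146 (1.21-fold, 0.0109). The RG6146 call ended with library size scaling (0.17, 0.0571) and without RG6146 replicate 3 (0.23, 0.0515).

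Hsp90aa1 (ENSMUSG00000021270, chromosome 12, 110690605 to 110702728, minus strand) had 2603, 2445 and 2494 CPM under DMSO, 2765, 2536 and 2709.5 with JQ1, and 2760.1, 2738 and 2666 with RG6146. JQ1 overlapped with DMSO, while the RG6146 libraries lay just above it. The log2 fold change was 0.09 ± 0.05 with JQ1 (edgeR adjusted p = 0.255) and 0.11 ± 0.05 with RG6146 (0.137), with upper 95% bounds of 0.19 and 0.22. With library size scaling the JQ1 value turned to -0.05. The HSP90β gene took 62.0% to 66.7% of the counts of the HSP90 pair in DMSO libraries, 66.6% to 68.6% with JQ1 and 65.7% to 68.8% with RG6146, ranges that overlap.

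Hsp90aa1 has 2 near-identical copies. The transcribed pseudogene Gm12346 on chromosome 11, 99.2% identical over the last 500 bases, held 9386 counts against 101656 of Hsp90aa1. It had 34.4, 105 and 547 CPM under DMSO, 245, 29.99 and 620.1 with JQ1, and 36.0, 502 and 170.4 with RG6146. These values differ more than 10-fold within each group and do not follow the treatment (log2 fold change 0.38 ± 1.49 with JQ1, edgeR adjusted p = 0.880). The copies made up 1.94% to 19.1% of the sum with Hsp90aa1. Hsp90ab1 has 1 such copy, which held 0.196% as many counts as the gene, and the other 7 genes had none.

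The HSP90 cochaperone genes went in opposite directions. Stip1, the HSP70 to HSP90 adaptor (ENSMUSG00000024966, chromosome 19, 7020702 to 7039967, minus strand), had 123, 129 and 124 CPM under DMSO, 199, 166 and 174 with JQ1, and 167, 161 and 189.9 with RG6146. All 6 treated libraries lay above 160 CPM and the DMSO libraries below 130. The log2 fold change was 0.52 ± 0.09 with JQ1 (1.44-fold, edgeR adjusted p = 2.2e-04) and 0.47 ± 0.09 with RG6146 (1.38-fold, 6.7e-04).

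Chordc1, a CHORD-domain cochaperone of HSP90 (ENSMUSG00000001774, chromosome 9, 18292125 to 18317442, plus strand), had 101, 110.3 and 127 CPM under DMSO, 88.0, 93.8 and 91.8 with JQ1, and 77.8, 88.8 and 87.0 with RG6146. It was the only one of the 10 genes below DMSO in all treated libraries. It fell by 0.31 on the log2 scale with JQ1 (SE 0.09, 0.808 of the DMSO level, edgeR adjusted p = 0.0193) and by 0.42 with RG6146 (SE 0.09, 0.749 of it, 0.00299). The JQ1 call ended with DESeq2 (adjusted p = 0.0516), without DMSO replicate 3 (a log2 fold change of -0.21, 0.118), without JQ1 replicate 1 (0.0768) and without JQ1 replicate 3 (0.0513). In the JQ1 and RG6146 libraries Chordc1 lay below Hsph1, in reverse of their order under DMSO. Of the 2 genes whose windows held the heat shock element of 3 repeats, shown above, one thus fell and the other was not called.

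In the count of libraries that do not overlap, 7 of the 10 genes lay above and 1 below DMSO with JQ1, where 42.6% of all tested genes did not overlap, 20.6% above and 22% below. With RG6146 6 lay above and 1 below, where the share of all genes was 40.9%, 20.1% above and 20.9% below. The libraries with the most myeloid transcripts were DMSO replicate 2 and JQ1 replicate 2. Without both, 4 genes rose and 0 fell with JQ1, and 4 rose and 1 fell with RG6146, the lost calls being those of Hspa1a and, for JQ1, Chordc1. In that fit 2529 of 11235 tested genes were called with JQ1 and 2514 with RG6146. The reported fit called 3184 and 2863 of 11002. Without JQ1 replicate 1, the library low in mitochondrially encoded transcripts, 4 rose and 0 fell with JQ1, and the calls of Hspa1a and Chordc1 were lost. Of 11213 genes tested there, 2492 were called with JQ1.

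Scaling bears on these small fold changes. By library size alone the median of all genes was -0.13 with JQ1 and -0.10 with RG6146, and 27.2% and 29.7% of the called genes were higher, in place of 47.0% and 48.0%. On that scale 4 of the 10 genes rose and 1 fell in each comparison. Of all 11002 tested genes, 3357 were then called with JQ1 and 2956 with RG6146. When libraries were scaled by ERCC spike-ins, synthetic RNAs added to each sample, 0 genes rose with JQ1 and 1, Hspa1a, with RG6146, and 0 fell. Calls over all 11002 tested genes fell too with this scaling, to 1196 with JQ1 and 1082 with RG6146. Log2 fold changes moved little on that scale (Dnajb1 0.62, Stip1 0.50, Hspa8 0.39 and Hsp90ab1 0.31 with JQ1), while standard errors rose to between 0.21 and 0.60 for the 6 called genes. The ERCC share of the reads differed between replicate numbers, from 1.35% to 1.51% in replicates 1 to 0.958% to 1.13% in replicates 3. With the replicate number added to that fit as a block, 5 rose and 1 fell in each comparison. That fit called 2829 of all tested genes with JQ1 and 2604 with RG6146.

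**Figure D4:**
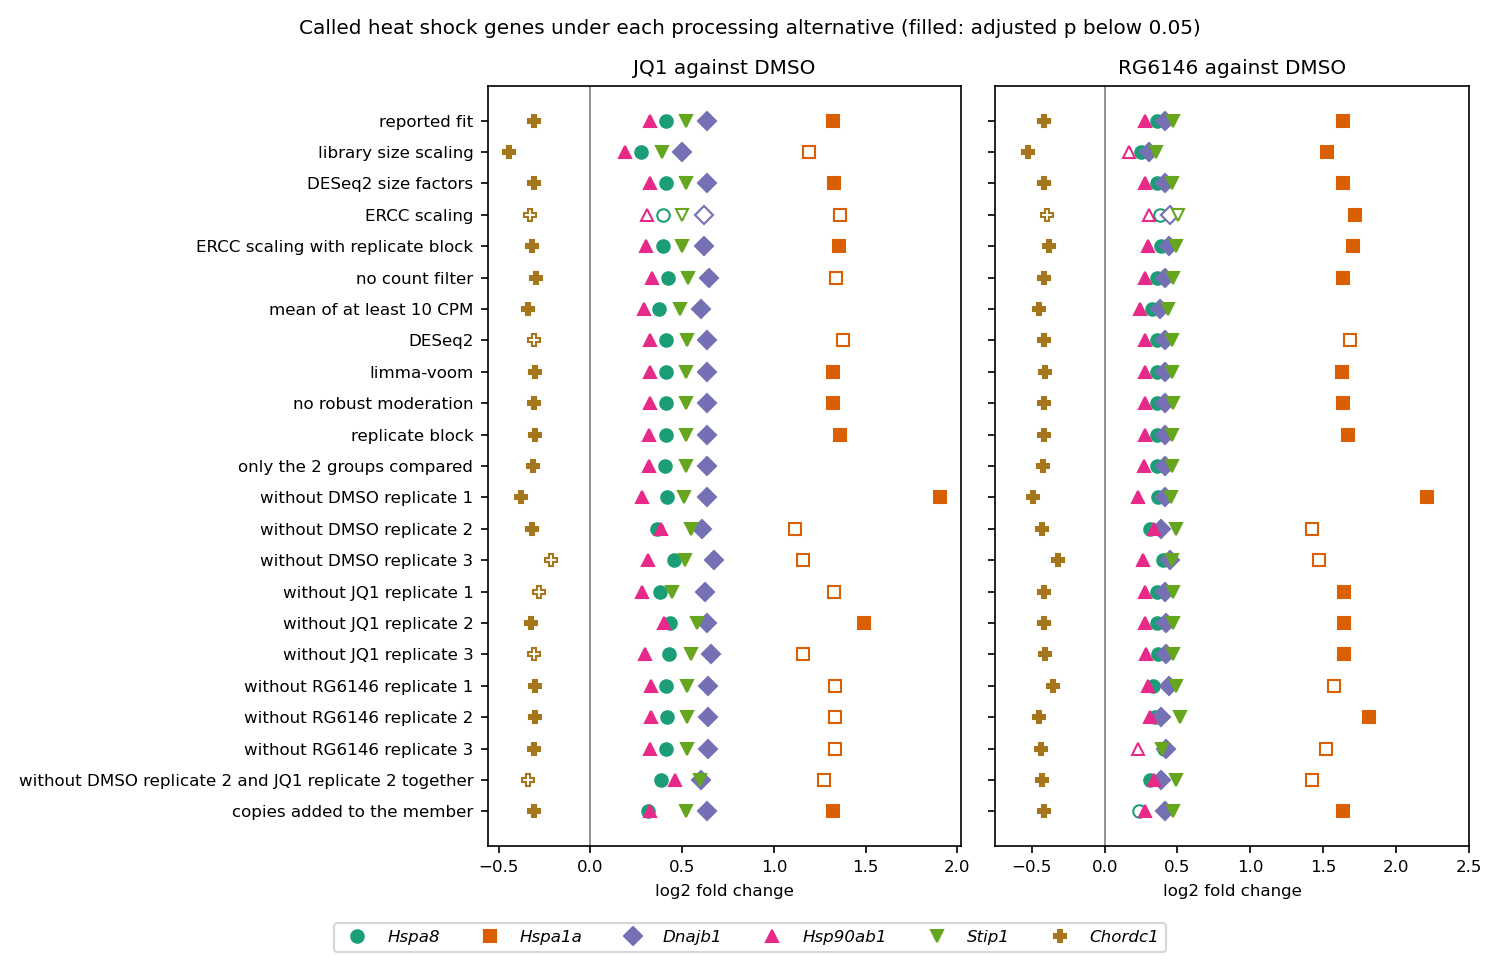
Log2 fold changes of the 6 called heat shock genes in the reported fit (top row) and under each alternative (rows), for JQ1 against DMSO (left) and RG6146 against DMSO (right); filled symbols have an adjusted p below 0.05, and a missing symbol means that the gene was not tested. No gene changes sides of 0, ERCC scaling without the block leaves only Hspa1a with RG6146 filled, and Hspa1a is the gene most often unfilled.

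The direct comparison of RG6146 at 2.5 µM with JQ1 at 1 µM asks whether the treatments differ, at doses that differ too. None of the 10 genes was called by edgeR, and 1 of 11002 genes was (0.00909%). DESeq2 called 0 of the 10 and limma-voom 0, and 1 of the 10 had an unadjusted p below 0.05 in edgeR. That gene was Dnajb1, lower with RG6146 by 0.22 ± 0.10 on the log2 scale (95% interval of the difference -0.41 to -0.03, edgeR adjusted p = 0.999), and its RG6146 libraries all lay below its JQ1 libraries. Among all tested genes 9.93% did not overlap in this comparison, 5.39% higher and 4.54% lower with RG6146, and the called gene was higher (0% were called lower). The intervals of the other abundant genes were -0.18 to 0.08 for Hspa8, -0.19 to 0.09 for Hsp90ab1, -0.08 to 0.13 for Hsp90aa1, -0.20 to 0.11 for Hsph1, -0.23 to 0.11 for Stip1 and -0.29 to 0.08 for Chordc1. For the scarce genes they were wide, from -0.48 to 1.11 for Hspa1a. A p that misses the threshold does not show that the treatments act alike on these genes.

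The rest of the chaperone network was read from 10 lists of 104 genes, of which 103 were found and 82 had enough counts to test. With JQ1 20 rose and 6 fell, and with RG6146 19 rose and 5 fell. In either direction 31.7% and 29.3% were called, close to the 28.9% and 26% of all tested genes. By direction they differed: 13.6% of all tested genes were called higher and 15.4% lower with JQ1, and 12.5% and 13.5% with RG6146. Rises thus outnumbered falls in the lists but not over all tested genes. By library size scaling, which lowered the median of all genes as given above, 11 rose and 13 fell with JQ1, and 8 rose and 8 fell with RG6146. With ERCC scaling, which called fewer of all tested genes as given above, 7 rose and 2 fell with JQ1, and 6 rose and 1 fell with RG6146. With ERCC scaling and the block the counts were 15 and 4, then 18 and 2, and with DESeq2 size factors 20 and 6, then 19 and 5. The genes named below kept their direction under every scaling tried where they are said to rise or fall. By library size scaling, calls ended with both compounds for Dnajb6, Dnaja1, Bag1, Cct8, Lonp1 and Trap1, with JQ1 for Bag5 and Cct7, and with RG6146 for Dedd2, Hspa2, Tomm34, Hyou1 and Hsp90b1. By ERCC scaling without the block, the calls that held in both comparisons, among the genes named, were those of Ier5, Ier5l, Dnajb13, Stub1, Bag2 and Hspa5. In the direct comparison of RG6146 with JQ1, 0 of the 82 were called, where 1 of all 11002 tested genes was. Among other heat shock factors and listed regulators of HSF1, 2 of 5 tested genes rose with JQ1 and 3 with RG6146, and none fell. Ier5 and Dedd2 of this list are also in that of HSF1 targets. Ier5, whose product promotes the activity of HSF1, had 62.6 to 65.1 CPM under DMSO and 123 to 171 in the treated libraries. Its log2 fold change was 1.30 ± 0.10 with JQ1 (edgeR adjusted p = 7.6e-08) and 1.10 ± 0.10 with RG6146 (5.9e-07). Its relative Ier5l, at 0.479 to 6.43 CPM, rose by 1.72 and 1.97, and Dedd2 rose with RG6146 only by its call (0.91, adjusted p = 0.0355, against 0.65 and 0.134 with JQ1), a difference between the treatments of 0.26 with an adjusted p of 0.999.

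Among 12 tested J-domain proteins other than Dnajb1, 5 rose and 2 fell in each comparison. Of all tested genes, 13.6% were called higher and 15.4% lower with JQ1, and 12.5% and 13.5% with RG6146. Dnajb13, known from cilia and sperm tails, had 1.88 to 2.27 CPM under DMSO and 3.65 to 8.42 in treated libraries, and rose by 2.03 with JQ1 and 1.52 with RG6146. Dnajc5, the cysteine string protein of vesicles, rose by 0.65 and 0.56. Dnajb6, a suppressor of protein aggregation, rose by 0.28 and 0.32, and Dnaja1, a main cytosolic J-domain protein, by 0.24 and 0.28. Dnajc7, which binds both HSP70 and HSP90, had 247 to 259 CPM under DMSO and 163 to 193 in treated libraries, and fell by 0.54 with JQ1 and by 0.50 with RG6146. Of 5 tested HSP70 and HSP110 genes outside the 10, none was called with JQ1 and 1, Hspa2, with RG6146 (0.99, adjusted p = 0.0389, against 0.89 and 0.0538 with JQ1). The difference of Hspa2 between the treatments was 0.09, with an adjusted p of 0.999. With ERCC scaling without the block and with DESeq2, 1 of the 5 was called higher with JQ1. Hspa4, the abundant HSP110 relative at 388 to 456 CPM, had log2 fold changes of -0.10 and -0.09 and was not called.

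Of 9 exchange factors and adaptors of HSP70, 3 rose and 1 fell with JQ1, and 2 rose and 1 fell with RG6146. The shares over all tested genes were 13.6% higher and 15.4% lower with JQ1, and 12.5% and 13.5% with RG6146. Stub1, the ubiquitin ligase CHIP that marks HSP70 clients for destruction, rose from 68.8 to 73.2 CPM under DMSO to 109.5 to 126 in treated libraries, by 0.74 ± 0.08 with JQ1 and 0.71 ± 0.08 with RG6146. Bag2, an inhibitor of CHIP, went the other way, from 62.1 to 68.2 CPM down to 27.4 to 37.4, and fell by 0.96 with JQ1 (edgeR adjusted p = 1.4e-05) and by 0.98 with RG6146. Bag1, an exchange factor, rose by 0.36 and 0.31, and Bag5 by 0.31 with JQ1, while its RG6146 value of 0.26 was not called.

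**Figure D5:**
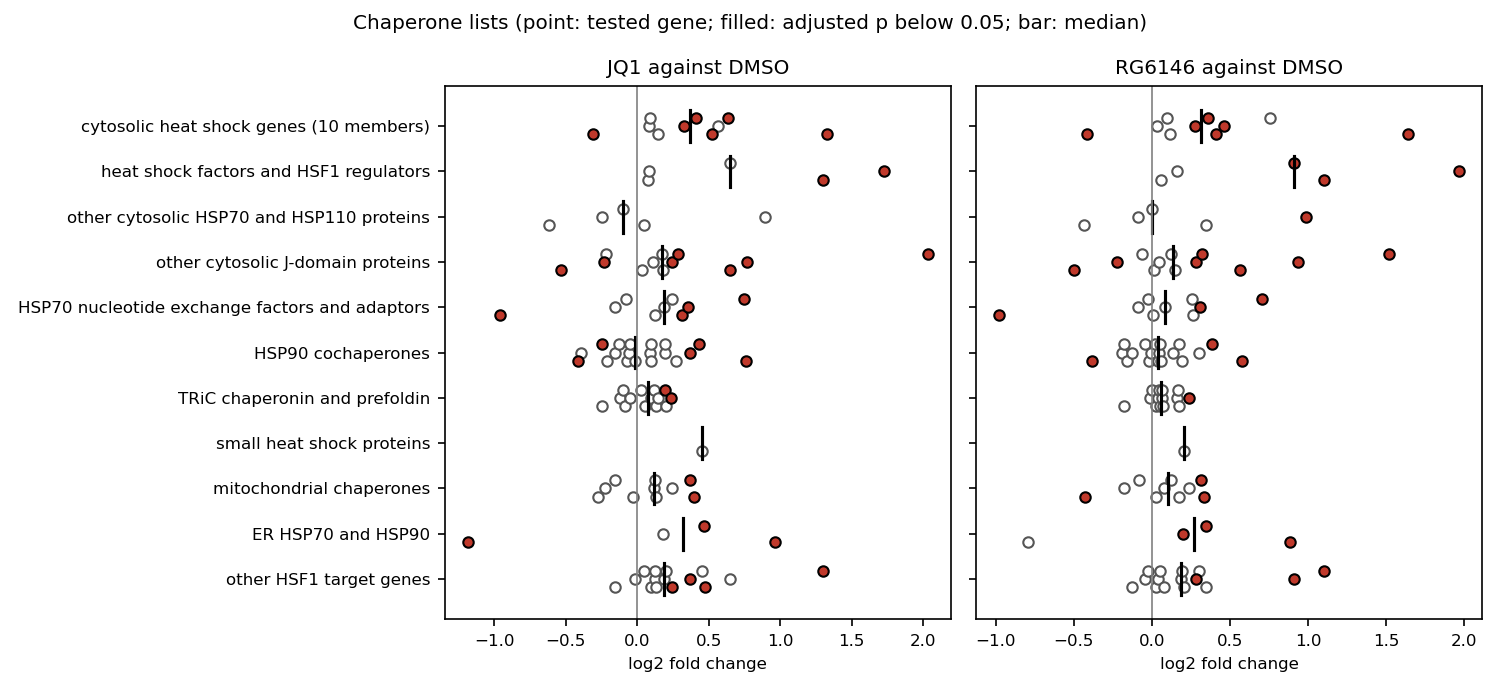
Log2 fold changes of the tested genes of the 10 members and of 10 chaperone lists (rows; filled points, adjusted p below 0.05 by edgeR; bars, median of a list) for JQ1 against DMSO and RG6146 against DMSO. In 4 of the 10 lists with either compound called genes lie on both sides of 0, as Stub1 and Bag2 do among the exchange factors, and the TRiC list stays within 0.25 of 0.

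Of 19 tested HSP90 cochaperones other than Stip1 and Chordc1, 14 were not called with JQ1 and 16 with RG6146. Of the rest, 3 rose and 2 fell with JQ1, and 2 rose and 1 fell with RG6146. Beside this, 28.9% of all tested genes were called with JQ1 and 26% with RG6146. The steroid receptor immunophilin Fkbp5 rose by 0.76 ± 0.12 and 0.58 ± 0.12, and its relative Fkbp4 by 0.37 with JQ1 (0.19 and adjusted p = 0.117 with RG6146). Tomm34, which links chaperones to mitochondrial import, rose by 0.43 and 0.39. The phosphatase gene Ppp5c fell by 0.42 and by 0.38, and the cyclophilin gene Ppid fell by 0.25 with JQ1 (-0.16 and 0.173 with RG6146). In the TRiC chaperonin, which folds actin and tubulin, and its partner prefoldin, 12 of 14 genes were not called with JQ1 and 13 with RG6146. The same shares of all tested genes, 28.9% and 26% called, stand beside these counts. Cct8 rose by 0.19 and 0.24 and Cct7 by 0.23 with JQ1. Of 9 small heat shock protein genes only Hspb1 had enough counts to test, at 3.04 to 9.41 CPM and not called.

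Among 10 mitochondrial chaperone and protease genes, Lonp1, a matrix protease, rose by 0.40 and 0.34 and Trap1, the mitochondrial HSP90, by 0.37 and 0.32. Clpp fell by 0.43 with RG6146 (-0.22 and adjusted p = 0.255 with JQ1), and Hspd1 and Hspa9, the abundant HSP60 and mitochondrial HSP70, were not called. In the endoplasmic reticulum Hspa5, which encodes BiP, had 487 to 496 CPM under DMSO and 873 to 1024 in treated libraries, and rose by 0.97 ± 0.06 with JQ1 and 0.88 ± 0.06 with RG6146. Hyou1, its HSP110-like partner, rose by 0.47 and 0.35, and Hsp90b1, which encodes GRP94, by 0.20 with RG6146 (0.18 and 0.0629 with JQ1). Hspa13, at 2.14 to 8.15 CPM, fell by 1.19 with JQ1 (-0.79 and 0.0876 with RG6146). The rise of Hspa5 was thus above that of its cytosolic relative Hspa8, as values side by side and with no test between genes. Of 15 tested targets of HSF1 outside the 10 genes, 4 rose with JQ1, among them Ier5, Fkbp4 and Dnaja1, and 3 with RG6146, and none fell, where 13.6% and 12.5% of all tested genes were called higher and 28.9% and 26% were called in either direction.

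The patterns of the 7 members above 10 CPM over the 9 libraries were set beside each other as a description. Points share the group differences and the libraries, so no p is given. Hspa8 and Dnajb1 had a Pearson r of 0.93 on log2(CPM + 1), Hsp90ab1 and Stip1 of 0.94, and Hsp90ab1 and Hsph1 of 0.90. Chordc1 was negative with each of the other 6, from -0.83 with Hsp90aa1 to -0.48 with Hsph1. Among 7410 genes, the one most like Hspa8 was Gm37376 (r = 0.984), then Sos1 (0.982). The closest to Dnajb1 were Trim27 (0.985) and Rplp0 (0.984), to Hsp90ab1 Saraf (0.984), to Stip1 Taf15 (0.982), to Hsph1 Slc25a39 (0.981), to Hsp90aa1 Ighv10-1 (0.977) and to Chordc1 Sec11c (0.972).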

How the data were processed

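QuantSeq libraries of mRNA 3′ ends, from 500 ng of RNA each, were sequenced as single reads of 75 bases, per the labels' protocols. Values are whole counts of reads per gene as deposited by the authors, who used cutadapt 1.7, HISAT2 2.1.0, featureCounts and the build mm10 (GRCm38), per the submitters' processing notes. Whether counting used strand, and how it treated reads with several matches, the sources used here do not give. The 92 ERCC rows stayed out of library sizes and tests.

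In R 4.3.3, edgeR 4.0.16 kept 11002 genes by filterByExpr (minimum count 10), scaled by TMM and fitted a robust quasi-likelihood model of the group to all 9 libraries. Calls are those with adjusted p below 0.05 (Benjamini-Hochberg, all tested genes), and adjusted p-values come from edgeR except where the text names a different tool. Errors of log2 fold changes are standard errors, and 95% Wald intervals are centred on the value without edgeR's prior count. Replicates differed beyond sampling noise (chi-square per degree of freedom 6.28 to 15.2). In counts simulated for JQ1 against DMSO over 11002 genes the test found 65% of changes of log2 1 and 93% of log2 2. Only 100 genes were changed by each size, a far smaller part than was called in the data. The rates therefore need not hold for the reported fit. Of the called heat shock genes only Hspa1a had a log2 fold change above 1, so smaller changes were not covered.

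Copies were found with blastn 2.17.0 on the GENCODE M21 transcripts. DESeq2 1.42.0, limma-voom (limma 3.58.1), other scalings and filters, the replicate block and leaving out libraries were tried as alternatives. All 10 members were named whatever their result. Each chaperone list named up to 4 genes with the smallest p with JQ1, and up to 2 whose call differed between the compounds. Members, lists and rules were chosen with earlier results of these data known. One gene that this rule names is not reported here.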

Additional observations from a re-analysis of the deposited data

How the results depend on the processing

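Limits first. Hspa1a and Hspa1b have few counts, RG6146 and JQ1 were given at different doses, and reads of near-identical copies cannot be assigned with certainty. Of the recomputed values of the 10 genes, 191 kept direction and call for JQ1 against DMSO, 22 lost a call and 3 changed sign. For RG6146 against DMSO 197 kept both, 14 lost a call, 1 gained one and 4 changed sign, and for RG6146 against JQ1 208 kept both and 9 changed sign. Each value that changed sign was smaller than its standard error.

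ERCC scaling called 1196 genes with JQ1, 1082 with RG6146 and 4 between the compounds, and of the 10 genes 0 rose and 0 fell with JQ1 and 1 rose and 0 fell with RG6146. DESeq2 called 2147 genes with JQ1 and 1902 with RG6146, with 0 falls among the 10 genes with JQ1. Between the compounds, 17 genes were called with no count filter and 0 with a mean of at least 10 CPM, limma-voom, no robust moderation, only the 2 groups or without DMSO replicate 2 and JQ1 replicate 2 together, and that last setting left 0 falls among the 10 genes with JQ1. Leaving out 1 library gave 0 to 1 falls with JQ1 and 0 to 2 genes between the compounds.

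Library size scaling turned Hsf1 (-0.0548 with JQ1, -0.0736 with RG6146), Hsp90aa1 (-0.0475 with JQ1) and Hsph1 (-0.0107 with RG6146). Between the compounds, Hsph1 was 0.0076 and Stip1 0.0033 with ERCC scaling, and Hsp90aa1 was -0.0095 without DMSO replicate 2 and JQ1 replicate 2 and -0.0078 with copies added. Over single libraries left out, Hsf1 ran from -0.0168 to 0.161 with JQ1, from -0.0629 to 0.145 with RG6146 and from -0.145 to 0.0615 between the compounds, where Hsp90aa1 ran from -0.0094 to 0.0530 and Stip1 from -0.130 to 0.0231. The cause was not tested.

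In gene levels after TMM scaling, same-numbered libraries did not deviate together. Of 9 correlations of their deviations 1 was over 0.1 (range -0.0694 to 0.107), and 3 of 9 libraries were closest to one of their own number. The numbers were therefore not taken as a pairing in the reported fit. These correlations cannot see the ERCC share, which fell with the replicate number in each group. ERCC scaling called 1196 genes with JQ1 without the block and 2829 with it. With the replicate block 3092 genes were called with JQ1, 2789 with RG6146 and 0 between the compounds, and of the 10 genes 5 rose and 1 fell with either compound. With ERCC scaling and the block Hsph1 was 0.0013 between the compounds.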
